A study of Rattus norvegicus with 9 samples.

Results

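Hox genes and 4 limb identity factors were followed in bulk RNA from rat femurs taken at day 7 after surgery. The members were the gene rows whose symbol is Hoxa, Hoxb, Hoxc or Hoxd with a number, together with Pitx1, Tbx4, Tbx5 and Shox2. This gave 40 genes of 31125 rows, each symbol in 1 row: 15 posterior Hox genes (paralogues 9 to 13), 21 anterior Hox genes (paralogues 1 to 8) and the 4 limb factors. The femurs came from male rats in 3 groups of 3 libraries, and every group is described as whole femurs. GMTT femurs had an injury of the distal femoral growth plate and a hydrogel that the labels call GMTT, and their label alone also speaks of an intact growth plate. GPI femurs had the same injury without the hydrogel, and Sham femurs had sham surgery. The labels name no strain, age or genotype and do not say whether tissue was pooled or how much muscle and marrow was kept on the bone. The p-values therefore reflect only how far these libraries spread.

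Hox genes encode homeodomain transcription factors and lie in clusters in which the order of the genes follows the order of their expression from head to tail. Genes with the same number in different clusters are paralogues. In mouse embryos the posterior paralogues of the HoxA and HoxD clusters pattern the limb along its length, and the HoxC genes Hoxc10 and Hoxc11 are expressed in the hindlimb and not in the forelimb. Pitx1 and its target Tbx4 mark the hindlimb, Tbx5 marks the forelimb, and Shox2 is needed for the upper limb bones, all in mouse. Adult connective tissue and muscle keep much of this positional pattern, while blood progenitors express other Hox genes, such as Hoxa9 and Hoxb4.

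Of the 40 members, 7 had no count in any of the 9 libraries (Hoxb1, Hoxd1, Hoxd11, Hoxd12, Hoxb13, Hoxc12 and Hoxc13). At totals of 15927429 to 19715997 counts per library, a count of 0 allows up to 0.152 to 0.188 CPM (counts scaled to the library total; a limit of 3 counts, which covers counting error only). Another 10 had counts but were too low to test, and 23 were tested: 6 posterior Hox genes, 14 anterior Hox genes, Pitx1, Tbx4 and Shox2. Members that passed the low-count filter only through the group where they are high tend to differ between groups, so counts over the 23 describe them and no more. In all, the members took 1045 to 1106 counts per GMTT library, 1638 to 2027 per GPI library and 632 to 735 per Sham library. They are thus rare transcripts, and the depth behind each is given below where it is low. Libraries that do not overlap between groups were common among all genes. In GPI against Sham 88.4% of the 15936 genes tested had no overlap, beside 20 of the 23 tested members. In GMTT against GPI these values were 86.2% and 19 members, and in GMTT against Sham 61.4% and 15 members. A lack of overlap alone therefore does not set a member apart from other genes.

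The groups also differed in genes of whole tissues. The 8 skeletal muscle markers found took 1.66 to 1.78% of the counts in GMTT, 7.75 to 8.15% in GPI and 0.172 to 0.184% in Sham, and none was at 0. The 8 erythroid markers took 0.589 to 0.599% in GMTT, 0.00167 to 0.00186% in GPI and 1.09 to 1.11% in Sham. The 8 osteoblast and osteocyte markers took 0.0797 to 0.0823% in GMTT, 0.0131 to 0.0141% in GPI and 0.113 to 0.120% in Sham. The 11 limb and fibroblast mesenchyme markers took 1.22 to 1.31% in GMTT, 0.561 to 0.593% in GPI and 0.697 to 0.744% in Sham. Col1a1 made up most of this sum in each group, with 473954 counts in GMTT, 183638 in GPI and 302458 in Sham. The order of the groups in the sum is therefore not that of every marker in the list. The part of these differences in the results below was not tested. In bulk tissue, fewer cells of a type and less RNA per cell cannot be told apart.

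The limb identity factors were described first, as a check of the tissue. Tbx5, the forelimb factor, had 1, 5 and 0 counts in the GMTT libraries, 0, 1 and 1 in GPI and 0 in each Sham library, and was too low to test. Pitx1 and Tbx4, the hindlimb factors, were counted in all 9 libraries; the femur is a hindlimb bone. Their order across the groups differed.

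Pitx1, a homeodomain factor that sets hindlimb identity (chromosome 17, 8794134 to 8800291, plus strand, mRatBN7.2), was highest in GMTT. It had 1.42, 1.67 and 1.16 FPKM in GMTT, 0.373, 0.481 and 0.171 FPKM in GPI, and 0.169, 0.207 and 0.377 FPKM in Sham. All 3 GMTT libraries lay above all GPI and Sham libraries, while GPI and Sham overlapped. On the TMM scale Pitx1 was higher in GMTT than in GPI by 2.01 (log2, SE 0.29, adjusted p = 2.18e-07) and higher than in Sham by 2.45 (SE 0.26, adjusted p = 1.47e-09) by edgeR's quasi-likelihood test, adjusted over all genes by Benjamini-Hochberg. GPI against Sham was 0.44 (SE 0.41, adjusted p = 0.31, same test), which turned to -0.64 without scaling between libraries, on 27 counts in GPI and 38 in Sham.

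Tbx4, the T-box factor of the hindlimb (chromosome 10, 70731163 to 70760825, plus strand), was highest in GPI. It had 0.118, 0.188 and 0.295 FPKM in GMTT, 0.233, 0.462 and 0.564 FPKM in GPI, and 0.103, 0.0392 and 0.0825 FPKM in Sham. Every GMTT and GPI library lay above every Sham library, and the GMTT and GPI libraries overlapped. Tbx4 rose in GPI against Sham by 2.43 (log2, SE 0.45, adjusted p = 9.31e-06) and in GMTT against Sham by 1.39 (SE 0.46, adjusted p = 0.0102). GMTT against GPI was -1.04 (SE 0.36, adjusted p = 0.00938, edgeR's quasi-likelihood test throughout), a call lost without GMTT replicate 1 (adjusted p = 0.0606), without GPI replicate 3 (0.0875) and with DESeq2 (0.051), and turned to 0.05 without scaling between libraries. The GMTT against Sham call was lost without GMTT replicate 3 (adjusted p = 0.0915) or Sham replicate 2 (0.065). Tbx4 rested on 45 counts in GMTT, 46 in GPI and 16 in Sham.

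Shox2, a homeodomain factor of the upper limb bones (chromosome 2, 151217552 to 151227143, minus strand), was the 1 tested member called lower in GPI against Sham. It had 2.82, 2.70 and 3.18 FPKM in GMTT, 2.05, 1.64 and 1.74 FPKM in GPI, and 2.23, 2.65 and 2.48 FPKM in Sham. All GPI libraries were below all others. The change was -0.47 (log2, SE 0.14, adjusted p = 0.00347) in GPI against Sham and 0.68 (SE 0.14, adjusted p = 5.28e-05) in GMTT against GPI. GMTT against Sham was 0.21 (SE 0.11, adjusted p = 0.12, edgeR's quasi-likelihood test throughout).

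**Figure D1:**
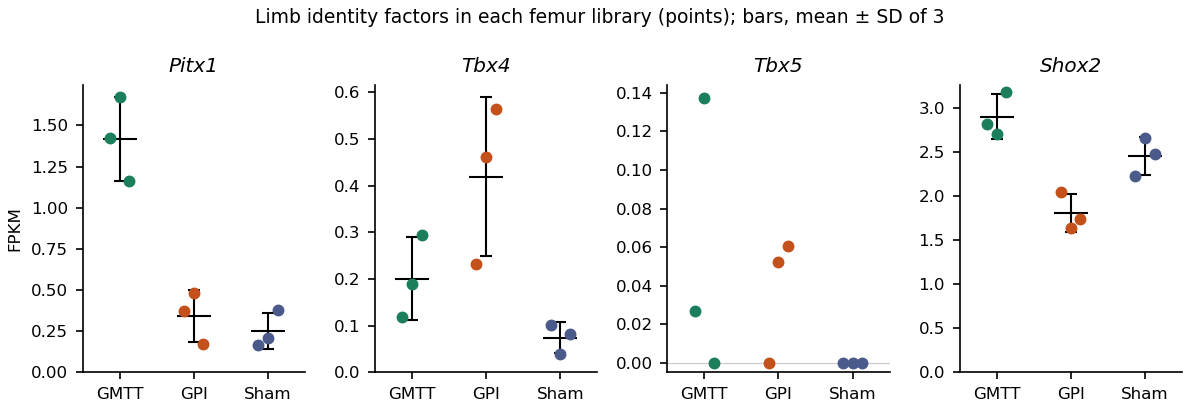
FPKM of Pitx1, Tbx4, Tbx5 and Shox2 in each library (points) of the GMTT, GPI and Sham groups, with the mean and SD of 3 libraries as bars, left out for Tbx5, which has libraries at 0; y axes differ. Pitx1 stands at 1.16 to 1.67 FPKM in GMTT, Tbx4 is highest in GPI and Shox2 is lowest in GPI.

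The first comparison of the Hox genes, GPI against Sham, sets femurs with growth plate injury beside sham femurs at day 7. These groups also differed in muscle and erythroid markers, as given above, and the part of that difference was not tested. Of the 23 tested members, 19 were called higher and 1, Shox2, lower, and Hoxb4, Hoxb6 and Pitx1 were not called. That is 82.6% higher, beside 88.2% of all 15936 genes tested called in either direction, 40.1% higher and 48.1% lower. The members' median log2 fold change was 1.92 and that of all genes -0.19. Without scaling between libraries 14 members were higher and 2 lower, beside 22.1% of all genes higher and 70.3% lower. Beside this, all 8 skeletal muscle markers and 10 of 11 limb and fibroblast mesenchyme markers were called higher, and all 8 erythroid and 7 of 7 tested neutrophil markers were called lower. These calls are on the TMM scale. As a summed share of all counts, without that scaling, the 11 mesenchyme markers were lower in GPI than in Sham. Most of that sum was Col1a1, with 183638 counts in GPI and 302458 in Sham. Lum, Pdgfrb and Twist1 also had fewer counts in GPI than in Sham. The other markers of the list had more, such as Col3a1 (90154 against 29301) and Prrx1 (4477 against 1290).

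Posterior genes of the HoxC cluster (chromosome 7, 134058640 to 134173133) had the 3 highest fold changes of the 23 tested members. Hoxc10, which in mouse patterns the lumbar spine and the hindlimb's motor neurons, had 4.10, 4.43 and 4.28 FPKM in GMTT, 30.3, 34.0 and 28.3 FPKM in GPI, and 1.36, 1.47 and 1.25045 FPKM in Sham. The 3 groups did not overlap, and GMTT lay between GPI and Sham. Hoxc10 rose in GPI against Sham by 4.47 (log2, SE 0.10, adjusted p = 3.89e-28, edgeR's quasi-likelihood test). It had the highest mean FPKM of all Hox members over the 9 libraries, with 581 counts in GMTT, 2087 in GPI and 179 in Sham.

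Its neighbours on either side moved likewise. Hoxc9, which in mouse sets the thoracic level of the spinal cord, had 1.12, 1.63 and 1.76 FPKM in GMTT, 7.64, 10.8 and 9.18 FPKM in GPI, and 0.313, 0.186 and 0.831 FPKM in Sham. Hoxc11, a hindlimb gene of the same cluster, had 0.781, 0.869 and 0.683 FPKM in GMTT, 8.35, 8.45 and 9.58 FPKM in GPI, and 0.498, 0.510 and 0.467 FPKM in Sham. For both genes the 3 groups did not overlap and the order was GPI, GMTT, Sham. In each comparison most of all genes tested had no overlap either. In GPI against Sham Hoxc9 rose by 4.33 (SE 0.27) and Hoxc11 by 4.12 (SE 0.15).

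The anterior HoxC genes rose less. Hoxc8, a thoracic gene, had 0.546, 0.455 and 0.453 FPKM in GMTT, 1.28, 2.20 and 2.62 FPKM in GPI, and 0.266, 0.271 and 0.357 FPKM in Sham. Hoxc4 had 0.516, 0.550 and 0.633 FPKM in GMTT, 1.51, 1.65 and 2.24 FPKM in GPI, and 0.230, 0.329 and 0.325 FPKM in Sham. Each GPI library of both genes was above all others. Their log2 changes in GPI against Sham were 2.70 (SE 0.32) for Hoxc8 and 2.55 (SE 0.25) for Hoxc4, with 2.22 (SE 0.15) for Hoxc6 and 3.51 (SE 0.39) for Hoxc5, the last on 11 counts in Sham. The table gives Hoxc6 a length of 10669 bases, beside 843 to 2734 for the other HoxC genes, which lowers its FPKM against theirs.

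In the HoxA cluster (chromosome 4, 81255883 to 81361091) all 6 tested genes rose, anterior and posterior alike. Hoxa9, a factor of blood progenitors and of the limb, had the second highest mean FPKM of the Hox members. It had 3.04, 2.78 and 3.24 FPKM in GMTT, 7.60, 7.12 and 8.08 FPKM in GPI, and 3.08, 2.56 and 2.37 FPKM in Sham. GPI stood apart, while GMTT and Sham overlapped. Hoxa9 rose by 1.48 (log2, SE 0.12) in GPI against Sham, less than the anterior gene Hoxa4, which rose by 3.04 (SE 0.25).

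Hoxa4 had 0.536, 0.492 and 0.519 FPKM in GMTT, 3.34, 3.03 and 2.36 FPKM in GPI, and 0.410, 0.225 and 0.414 FPKM in Sham. Hoxa7, a trunk gene, had 0.752, 0.814 and 0.789 FPKM in GMTT, 1.77, 2.33 and 1.65 FPKM in GPI, and 0.536, 0.727 and 0.656 FPKM in Sham. Hoxa3, a gene of the neck region in mouse, had 0.418, 0.326 and 0.461 FPKM in GMTT, 0.758, 1.01 and 1.248 FPKM in GPI, and 0.336, 0.299 and 0.368 FPKM in Sham. GPI was the highest group for all 3 genes, with changes against Sham of 1.55 (SE 0.21) for Hoxa7 and 1.54 (SE 0.26) for Hoxa3. Hoxa3 spans Hoxa4 on the same strand in the table, so their reads may have been split between them.

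Hoxa11, which in mouse patterns the lower leg and forearm, was lowest in GMTT, unlike the posterior HoxC genes. It had 0.112, 0.0763 and 0.133 FPKM in GMTT, 0.440, 0.509 and 0.463 FPKM in GPI, and 0.187, 0.296 and 0.214 FPKM in Sham. GMTT was below both other groups without overlap. By edgeR's quasi-likelihood test Hoxa11 rose by 0.97 (log2, SE 0.35, adjusted p = 0.0107) in GPI against Sham and fell by 1.14 (log2, SE 0.41, adjusted p = 0.0176) in GMTT against Sham. Both calls were lost with DESeq2 (adjusted p = 0.0595 and 0.098), and the second without GMTT replicate 2 (0.0791) or Sham replicate 2 (0.111). The first turned to -0.11 without scaling between libraries, on 17 counts in GMTT, 37 in GPI and 36 in Sham.

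In the HoxD cluster (chromosome 3, 59570646 to 59667769) the 3 tested genes rose in GPI. Hoxd8 had 1.58, 1.75 and 2.25 FPKM in GMTT, 4.81, 5.40 and 4.83 FPKM in GPI, and 1.16, 1.33 and 1.31 FPKM in Sham. Hoxd9, a gene of the upper limb segment in mouse, had 0.396, 0.502 and 0.381 FPKM in GMTT, 1.10, 1.502 and 1.26 FPKM in GPI, and 0.286, 0.301 and 0.220 FPKM in Sham. For both genes the 3 groups did not overlap, with GMTT between the other two. Their log2 changes in GPI against Sham were 1.95 (SE 0.15) and 2.22 (SE 0.29), and Hoxd4 rose by 1.92 (SE 0.33). The HoxD genes of the distal limb, Hoxd11 and Hoxd12, had no count, and Hoxd13 had 0 counts in GMTT, 2 in GPI and 1 in Sham.

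HoxB genes (chromosome 10, 81160498 to 81332836) changed least. Hoxb4, known for the self-renewal of blood stem cells, had 0.509, 0.348 and 0.297 FPKM in GMTT, 0.430, 0.331 and 0.384 FPKM in GPI, and 0.487, 0.361 and 0.457 FPKM in Sham. Hoxb6 had 0.295, 0.504 and 0.535 FPKM in GMTT, 1.03, 0.832 and 0.519 FPKM in GPI, and 0.439, 0.293 and 0.652 FPKM in Sham. The 3 groups overlapped for both genes. In GPI against Sham, edgeR's quasi-likelihood test gave adjusted p = 0.588 for Hoxb4 (log2 -0.21, SE 0.37) and 0.0532 for Hoxb6 (0.78, SE 0.37). Hoxb3 was called higher (1.26, SE 0.35), as was Hoxb7 (0.83, SE 0.37, adjusted p = 0.0359), but the Hoxb7 call was lost without GPI replicate 1 or 2 or any Sham library and with DESeq2, at adjusted p of 0.0523 to 0.112. Without scaling between libraries Hoxb3, Hoxb7, Hoxa2, Hoxa3 and Hoxa11 were not called, Hoxb7 and Hoxa11 with the sign turned, and Hoxb4 was called lower (log2 -1.29).

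**Figure D2:**
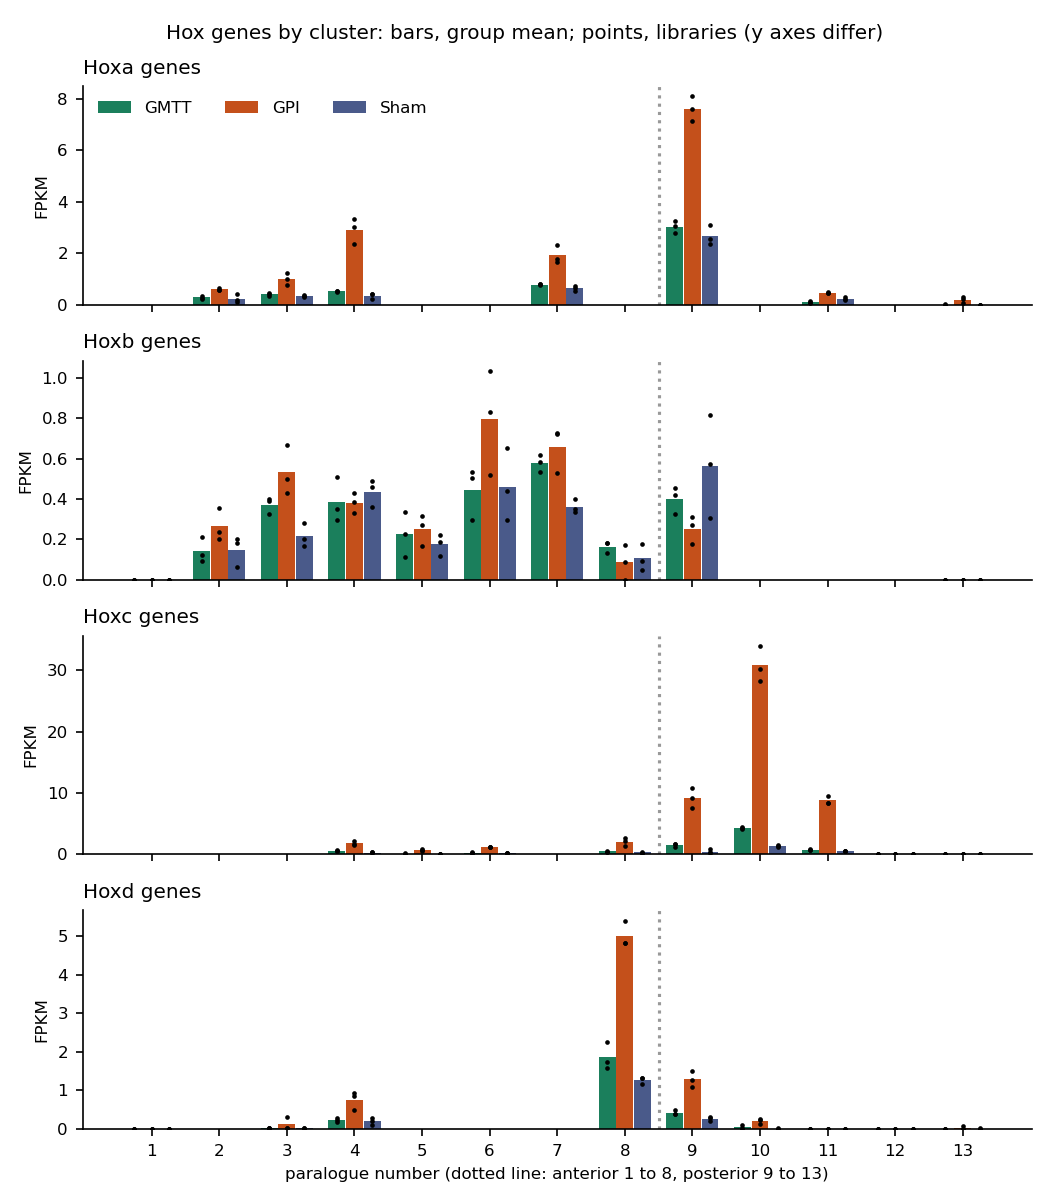
FPKM of Hox genes by paralogue number in each cluster, with group means as bars (GMTT, GPI, Sham from left to right) and libraries as points; y axes differ and gaps are numbers with no member or not shown. Hoxc9, Hoxc10 and Hoxc11 reach 7.64 FPKM or more in every GPI library, while HoxB genes stay near or below 1 FPKM.

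Among the members too low to test, the distal limb gene Hoxa13 had 0, 0 and 1 counts in GMTT, 5, 4 and 1 in GPI and 0 in each Sham library. Hoxd10 had 0, 1 and 5 counts in GMTT, 5, 3 and 5 in GPI and 0, 0 and 1 in Sham. Hoxb9, the only posterior HoxB member with counts, leaned the other way, with 10, 7 and 9 counts in GMTT, 3, 2 and 3 in GPI and 6, 18 and 12 in Sham. When edgeR's quasi-likelihood test was fitted with no low-count filter, Hoxa13 (adjusted p = 0.000326) and Hoxd10 (adjusted p = 0.000243) were called higher in GPI against Sham, with no fold given against 0 and 1 counts in Sham. In the same fit Hoxb9 was called lower, at -1.23 (log2, SE 0.57, adjusted p = 0.0472). Hoxb2, Hoxb5 and Hoxb8 had 3 to 24 counts per group, and Hoxd3 had 8 of its 10 GPI counts in GPI replicate 3.

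Posterior and anterior genes were compared within each library, where the scaling between libraries drops out. The posterior genes (9 to 13) made up 57.2% ± 1.15 of the summed Hox FPKM in GMTT, 73.6% ± 0.347 in GPI and 50.7% ± 0.858 in Sham (SD, n = 3). The summed posterior level was 10.6 ± 0.526 FPKM in GMTT, 58.9 ± 3.52 in GPI and 6.04 ± 0.0993 in Sham. The summed anterior level was 7.90 ± 0.348 FPKM in GMTT, 21.2 ± 0.878 in GPI and 5.88 ± 0.107 in Sham. The libraries of the 3 groups did not overlap in the posterior share, which is a sum over members and was given no test.

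Among the clusters, HoxC differed most in its share. HoxC genes held 43.3% ± 2.05 of the summed Hox FPKM in GMTT, 68.1% ± 1.67 in GPI and 26.8% ± 2.31 in Sham. HoxA genes held 28.0% ± 1.62, 18.5% ± 0.934 and 37.7% ± 3.61 in the same order of groups, and HoxB genes 14.7% ± 1.20, 4.04% ± 0.817 and 20.7% ± 2.16. These sums leave out 3 rows of the HoxA cluster that carry no Hox symbol and are described as Hox-A5, Hox-A6-like and Hox-A10-like. With them, an alternative chosen after seeing the data, HoxC genes held 33.05% ± 0.602 in GMTT, 52.9% ± 1.90 in GPI and 19.9% ± 2.25 in Sham, and HoxA genes 45.0% ± 1.06 in GMTT, 36.8% ± 1.48 in GPI and 53.6% ± 3.97 in Sham. The order of the groups was as before for both clusters. With Hoxc10 left out, the posterior share was 44.3% in GMTT, 57.0% in GPI and 44.4% in Sham, so the difference between GMTT and Sham did not remain, while that between GPI and Sham did. The ratio of Hoxc10 to Hoxa9, the members with the highest mean FPKM, was 1.42 ± 0.150 in GMTT, 4.09 ± 0.642 in GPI and 0.514 ± 0.0676 in Sham.

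By paralogue number, the members of group 10, Hoxc10 and Hoxd10, summed to 4.32 ± 0.188 FPKM in GMTT, 31.1 ± 2.82 in GPI and 1.37 ± 0.0969 in Sham. With the Hox-A10-like row added, group 10 summed to 7.53 ± 0.481 FPKM in GMTT, 44.6 ± 2.49 in GPI and 3.35 ± 0.364 in Sham. Group 9 summed to 5.35 ± 0.411 FPKM in GMTT, 18.3 ± 1.54 in GPI and 3.95 ± 0.0758 in Sham. Group 11 summed to 0.885 ± 0.0649 FPKM in GMTT, 9.27 ± 0.680 in GPI and 0.724 ± 0.0711 in Sham. Group 13, whose members act in the hand and foot, had group means of 0.227 FPKM or less, and group 12 had no count. Groups 9 to 11 thus carried nearly the whole posterior level.

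**Figure D3:**
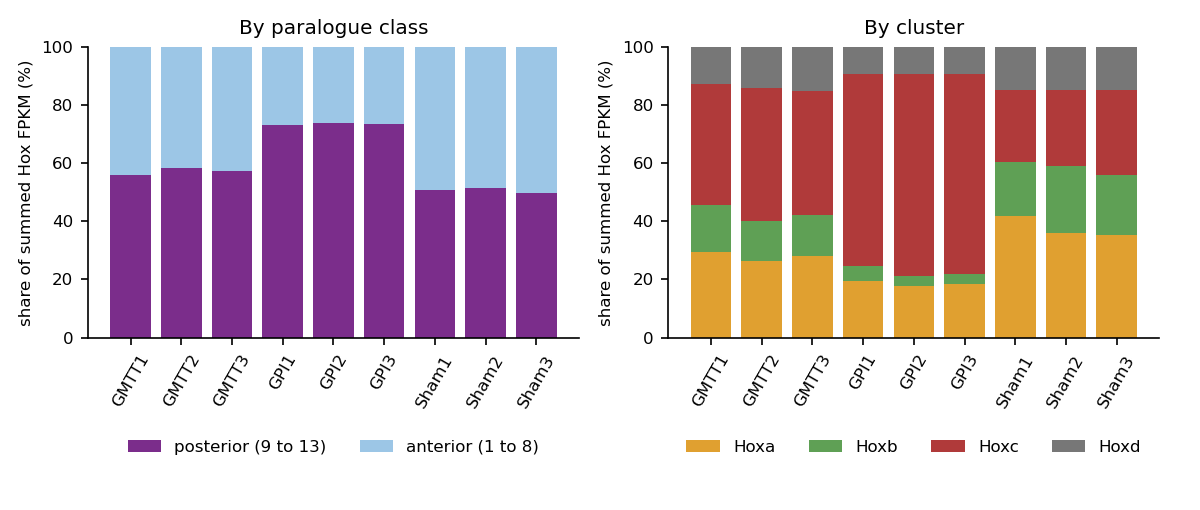
Share of the summed Hox FPKM in each of the 9 libraries held by posterior and anterior paralogues (left) and by the Hox clusters (right). The posterior share is about 74% in GPI libraries, above GMTT and Sham, and the HoxC share is 66.3 to 69.4% in GPI; the 3 HoxA rows without a Hox symbol are not in these sums.

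The promoters of Hoxa9, Hoxd9 and Tbx4 are shown because these genes, from separate chromosomes, were all higher in GPI than in Sham. RefSeq promoters (build GRCr8) matched 20 of the 40 members by symbol, and the 250 bases before the start are given 5′ to 3′, with capitals marking matches to CCAAT, to TATAAA and to the muscle-type E-box CAGCTG on either strand, none of which overlapped another. The windows are chr4:82657049-82657298 on the minus strand for Hoxa9, chr3:80007756-80008005 on the plus strand for Hoxd9 and chr10:71228306-71228555 on the plus strand for Tbx4.
Hoxa9: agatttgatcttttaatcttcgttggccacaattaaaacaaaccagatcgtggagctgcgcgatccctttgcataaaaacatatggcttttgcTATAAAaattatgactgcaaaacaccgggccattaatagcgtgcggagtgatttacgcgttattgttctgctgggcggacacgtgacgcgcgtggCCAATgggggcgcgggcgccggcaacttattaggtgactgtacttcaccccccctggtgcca
Hoxd9: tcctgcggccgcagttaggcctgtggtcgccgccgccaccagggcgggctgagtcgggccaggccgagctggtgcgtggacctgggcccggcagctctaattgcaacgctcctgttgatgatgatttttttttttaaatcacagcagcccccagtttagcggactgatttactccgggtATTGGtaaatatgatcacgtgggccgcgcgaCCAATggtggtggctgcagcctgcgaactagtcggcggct
Tbx4: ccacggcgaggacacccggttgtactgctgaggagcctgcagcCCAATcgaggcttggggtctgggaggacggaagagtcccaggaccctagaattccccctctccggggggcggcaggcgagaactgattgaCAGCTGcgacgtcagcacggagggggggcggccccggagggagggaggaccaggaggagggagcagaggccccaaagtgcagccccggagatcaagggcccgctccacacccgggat
No promoter was matched for Hoxc9, Hoxc10, Hoxc11, Pitx1 or Shox2, so the motif counts do not cover them. The 20 matched members include Hoxb1, Hoxd1, Hoxd11 and Hoxd12, which had no count in any library. CCAAT was found in 11 of the 20 member windows and in 34.0% of all 33469 promoters. TATAAA was found in 2 of the 20 (Hoxa9 and Hoxd13) and in 12.9% of all, and CAGCTG in 4 of the 20, among them Tbx4, and in 12.0% of all. The Pitx-type sequence TAATCC, held by 6.34% of all promoters, and the T-box sequence GGTGTGA, held by 3.22%, were in none of the 20 windows. The Hox and Pbx sequence TGATNNAT was in 3 of the 20 (Hoxa2, Hoxb1 and Hoxd11) and in 7.96% of all, and the posterior Hox sequence TTTATTA in none of the 20 and in 4.81% of all. The member windows held a median of 18 CG pairs, beside 5 in all promoters, and a median GC content of 60.6%, beside 51.2%.

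GMTT was next set against GPI, that is, injured femurs with and without the hydrogel. It shares the GPI libraries with the first, so its directions are not independent of those above. Of the 23 tested members, 18 were called lower and 2, Pitx1 and Shox2, higher, and Hoxb3, Hoxb4 and Hoxb7 were not called. That is 78.3% lower, beside 85.9% of all genes called in either direction, 40.2% lower and 45.7% higher, with a median of -1.43 for the members and 0.12 for all genes. Without scaling between libraries 10 members were lower and 4 higher, beside 18.9% and 72.2% of all genes.

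The posterior HoxC genes again changed most. Hoxc11 fell by 3.49 (log2, SE 0.14), Hoxc10 by 2.86 (SE 0.08) and Hoxc9 by 2.61 (SE 0.21), at adjusted p of 4.88e-21, 6.48e-25 and 2.18e-12 by edgeR's quasi-likelihood test. Among anterior genes, Hoxc5 (-2.497, SE 0.33) and Hoxa4 (-2.496, SE 0.23) fell most, followed by Hoxc6 (-2.14, SE 0.145) and Hoxc8 (-2.04, SE 0.29). Hoxa9 fell by 1.33 (SE 0.12) and Hoxd8 by 1.43 (SE 0.14). The calls of Hoxa2, Hoxa3, Hoxa7, Hoxa9, Hoxd4 and Hoxd9 were lost without scaling between libraries, where Hoxa9 stood at -0.23. Those of Hoxb6 and Tbx4 were lost there too, with the sign turned (0.24 and 0.05). The Hoxb6 call (-0.85, SE 0.37, adjusted p = 0.0351, same test) was lost without GMTT replicate 1, GPI replicate 1 or GPI replicate 2, at adjusted p of 0.0874 to 0.204. It was also lost with DESeq2 (adjusted p = 0.123) and with limma on unfiltered log2(FPKM + 1) (0.0647). Beside these values, all 8 skeletal muscle markers were called lower and all 8 erythroid markers higher in GMTT than in GPI.

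**Figure D4:**
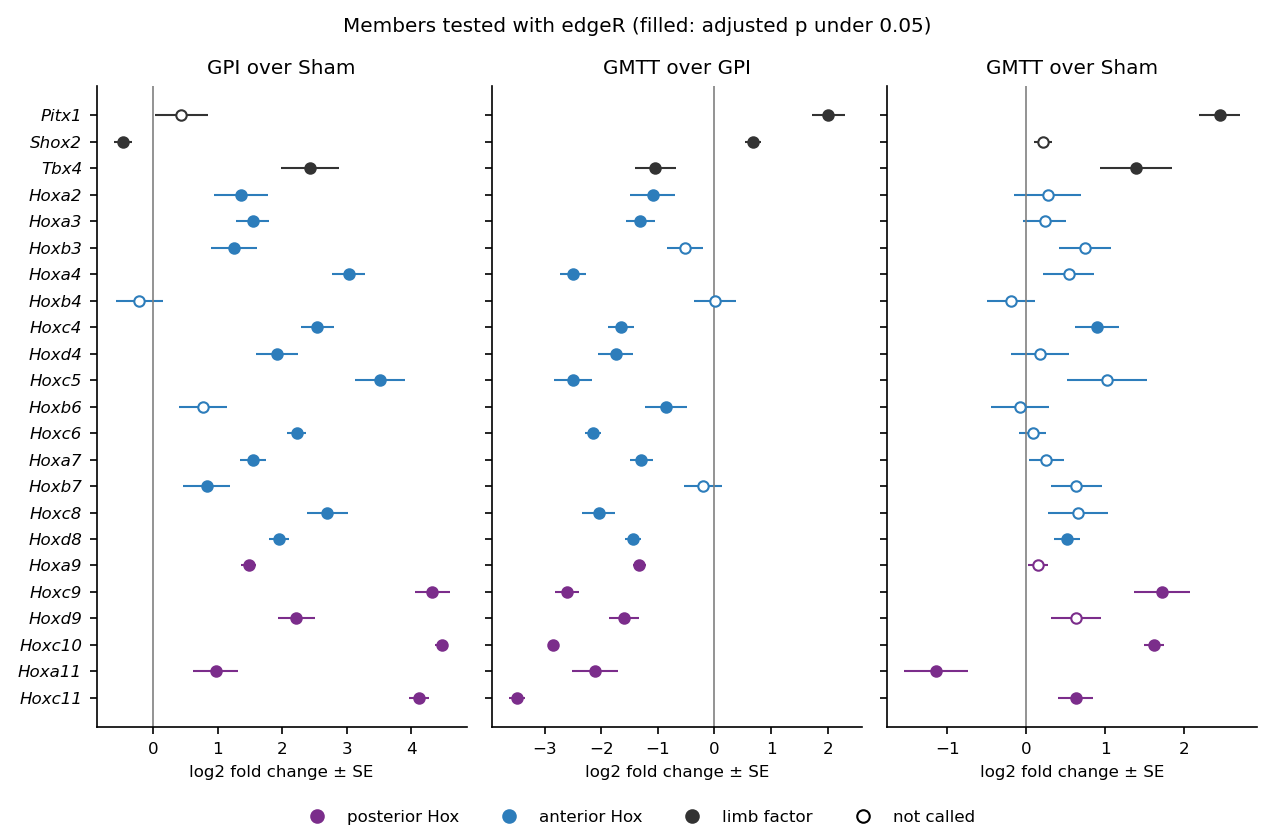
Log2 fold change with SE of the 23 tested members in the 3 comparisons, with filled points where the adjusted p is under 0.05; 9 libraries, 3 per group. Posterior HoxC genes lie above 4 in GPI over Sham, and Pitx1 lies near 2 in both comparisons with GMTT on top.

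Hydrogel-treated femurs were last set against Sham. Here the scaling matters little, since the median of all genes was -0.0031 with it and 0.0065 without it. Of the 23 tested members, 7 were called higher (Pitx1, Hoxc9, Hoxc10, Tbx4, Hoxc4, Hoxc11 and Hoxd8) and Hoxa11 lower. Of all genes 57.8% were called in either direction. The members' share called higher, 30.4%, was close to the 29.5% of all genes. The share called lower was 4.35%, beside 28.3% of all genes. The members' median was 0.54.

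After Pitx1, the posterior genes Hoxc9 and Hoxc10 had the highest fold changes. Hoxc9 rose by 1.72 (log2, SE 0.35, adjusted p = 0.000124) and Hoxc10 by 1.62 (SE 0.13, adjusted p = 1.17e-12). Hoxc4 rose by 0.90 (SE 0.28), Hoxc11 by 0.63 (SE 0.22, adjusted p = 0.0158) and Hoxd8 by 0.52 (SE 0.16, adjusted p = 0.00654). The Hoxc11 call was lost without GMTT replicate 2 (adjusted p = 0.0705) and the Hoxd8 call without GMTT replicate 3 (0.0769), all in edgeR's quasi-likelihood test. Hoxa9 (0.15, SE 0.12, adjusted p = 0.305, same test) and Hoxc6 (0.08, SE 0.17) were not called, and their GMTT and Sham libraries overlapped. Beside these values, all 8 skeletal muscle markers and all 11 limb and fibroblast mesenchyme markers were called higher in GMTT than in Sham.

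Pitx1 and the HoxC genes were thus ordered differently across groups. The ratio of Pitx1 to Hoxc10 in FPKM was 0.332 ± 0.0545 in GMTT, 0.0108 ± 0.00425 in GPI and 0.189 ± 0.0977 in Sham, with GMTT and Sham overlapping and GPI apart. The ratio of Pitx1 to Tbx4 was 8.28 ± 4.08 in GMTT, 0.983 ± 0.652 in GPI and 3.84 ± 1.93 in Sham, with 1 GMTT library inside the Sham range. These ratios do not depend on the scaling, and the pairs were chosen after their values were seen.

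Of 30 other limb patterning factors listed, 20 were tested, and 17 (85%) were called higher and 2 (10%) lower in GPI against Sham, beside 40.1% and 48.1% of all genes. Their median log2 fold change was 2.87, beside -0.19 for all genes. Without scaling between libraries 12 were higher and 4 lower, beside 22.1% and 70.3% of all genes. Tbx15, a T-box factor of muscle and skeleton, had 35.3 ± 1.19 normalised CPM in GMTT, 297 ± 4.14 in GPI and 7.56 ± 0.315 in Sham (SD, n = 3), a log2 change of 5.29 (SE 0.06) in GPI against Sham. Zbtb16, a zinc finger factor of limb patterning in mouse, had 3.64 ± 0.313 CPM in GMTT, 75.9 ± 1.65 in GPI and 1.74 ± 0.281 in Sham (5.45, SE 0.10).

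Prrx1, a homeodomain factor of limb mesenchyme, had 36.0 ± 3.4 CPM in GMTT, 131 ± 4.01 in GPI and 19.7 ± 0.484 in Sham, a change of 2.73 (SE 0.07) in GPI against Sham. Irx3 fell in GPI against Sham by 0.94 (SE 0.22) and Irx5 by 0.76 (SE 0.23). In GMTT against GPI 14 of the 20 limb factors (70%) fell and 1, Irx5, rose, beside 40.2% and 45.7% of all genes. Without scaling between libraries 9 fell and 7 rose, beside 18.9% and 72.2% of all genes. In GMTT against Sham 16 of the 20 (80%) rose and 1, Irx3, fell, beside 29.5% and 28.3% of all genes.

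Cofactors that bind DNA with Hox proteins were called in both directions. Of 8 tested Meis, Pbx and Pknox genes, 3 (37.5%) rose and 5 (62.5%) fell in GPI against Sham, beside 40.1% and 48.1% of all genes. Pknox2 had 5.58 ± 0.457 CPM in GMTT, 60.05 ± 3.80 in GPI and 2.29 ± 0.429 in Sham (log2 4.71, SE 0.11). Pbx3 had 26.02 ± 1.5 CPM in GMTT, 6.28 ± 0.319 in GPI and 40.2 ± 1.27 in Sham (-2.68, SE 0.09). Meis1, the partner of Hoxa9 in blood progenitors, had 19.3 ± 0.809 CPM in GMTT, 8.15 ± 1.24 in GPI and 17.9 ± 0.206 in Sham (-1.14, SE 0.10), while Hoxa9 was highest in GPI. In GMTT against GPI 3 cofactors rose and 3 fell, beside 45.7% and 40.2% of all genes, and without scaling 5 rose and 1 fell, beside 72.2% and 18.9%. In GMTT against Sham 2 (25%) rose and 4 (50%) fell, beside 29.5% and 28.3% of all genes.

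Chromatin regulators that keep Hox genes on (the Mll group) or silent (the Polycomb group) were listed too. Of 14 tested, 10 (71.4%) fell and 3 (21.4%) rose in GPI against Sham, beside 48.1% and 40.1% of all genes, with a median of -0.89 beside -0.19. Without scaling between libraries 13 fell and 1 rose, but there 70.3% of all genes fell and 22.1% rose. The Polycomb methyltransferase gene Ezh2 had 92.6 ± 1.5 CPM in GMTT, 7.07 ± 0.197 in GPI and 132 ± 0.811 in Sham (-4.22, SE 0.07). Cbx2, a Polycomb reader, had 12.7 ± 1.24 CPM in GMTT, 1.18 ± 0.306 in GPI and 18.7 ± 0.837 in Sham (-3.99, SE 0.16), and the Polycomb ligase gene Rnf2 rose by 1.63 (SE 0.06). In GMTT against GPI 11 of the 14 (78.6%) rose and 3 fell, beside 45.7% and 40.2% of all genes. In GMTT against Sham 1, Kdm6b, rose and 8 (57.1%) fell, beside 29.5% and 28.3% of all genes. All 8 erythroid markers fell in GPI beside these genes, and their part was not tested.

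**Figure D5:**
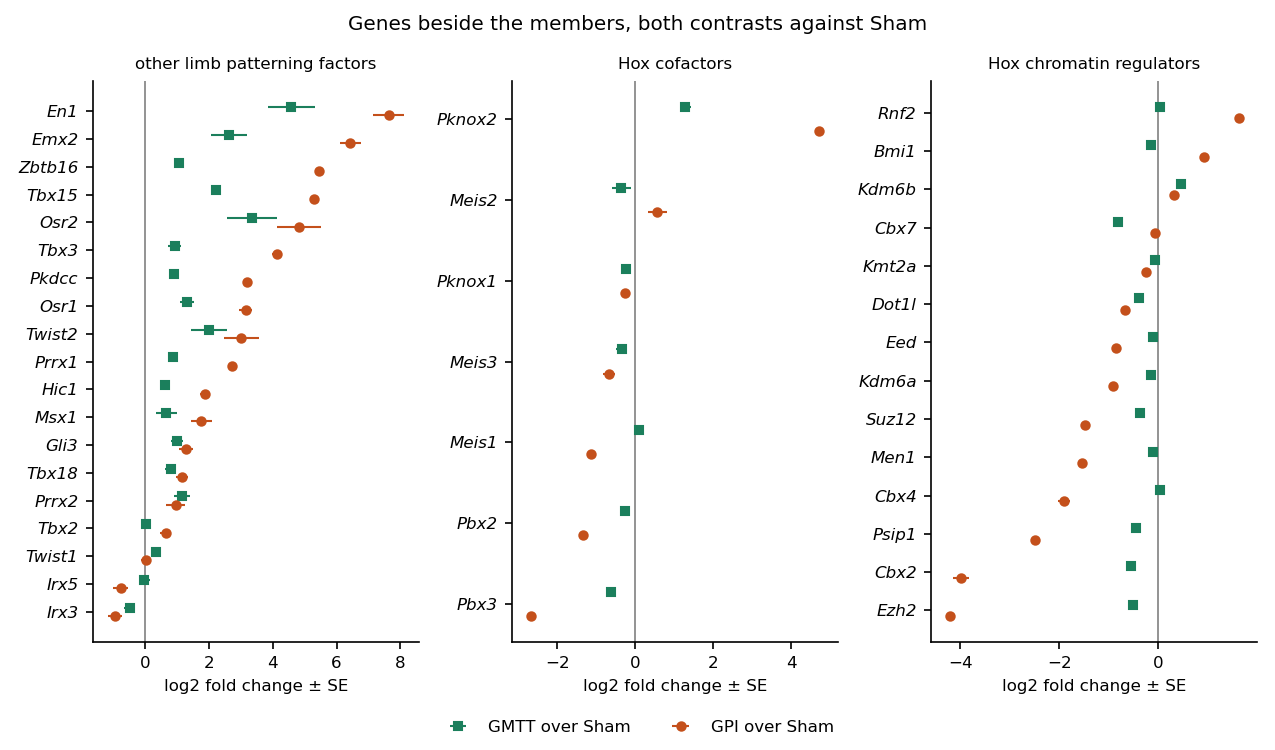
Log2 fold change with SE of tested limb patterning factors, Hox cofactors and Hox chromatin regulators, a few of them not shown, GMTT over Sham (squares) and GPI over Sham (circles), 3 libraries per group. Limb patterning factors lie mostly to the right of 0, and Ezh2 and Cbx2 lie near -4 in GPI over Sham.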

How the data were processed

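Gene tables with raw read counts and with FPKM were deposited by the authors. Poly(A) RNA went into stranded dUTP libraries after TRIzol extraction, per the labels' protocols. The submitters' processing notes name the build mRatBN7.2. How reads were aligned and counted, with which strand setting, is not given in the sources used here. Reads shared by similar Hox paralogues are uncertain. The deposited FPKM divide counts by gene length and by 1 constant per library, and already scale between libraries; they were used for levels.

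Counts were tested with edgeR 4.0.16 in R 4.3.3 (quasi-likelihood F test, robust, 2-sided), in a single model of the 9 libraries by group. TMM scaling and edgeR's standard filter at a count of 10 were used, leaving 15936 genes, and calls needed a Benjamini-Hochberg adjusted p under 0.05 across them. Normalised CPM are TMM-scaled. The script was tested on simulated data. Alternatives were other scalings and filters, DESeq2 1.42.0, limma 3.58.1 on log2(FPKM + 1) and log2(FPKM + 0.1), fits of 6 libraries, a replicate block, summed rows, a fit without dominant genes and leaving out each library.

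Members and lists were chosen with earlier results of these data known. Values in every library are given for the 4 limb factors, the 12 Hox genes with the highest mean FPKM and the 3 highest and 3 lowest fold changes per comparison; list genes could be named freely. The muscle markers Myh1 and Mylpf found no row by symbol and were not used here. A few single genes are not reported here, though group counts include them. Figures were drawn with matplotlib 3.10.9.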

Additional observations from a re-analysis of the deposited data

How the results depend on the processing

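Of 1393 member fold changes under the alternatives, 1316 kept their direction and their side of the threshold, 37 lost and 21 gained a call, and 19 turned sign, of which 1 was called. Only the setting with library sizes only left out the scaling between libraries. There 50 of 69 fold changes stayed the same, 9 lost and 2 gained a call, and 8 turned sign. Leaving out 1 library gave 19 to 22 members called in GPI against Sham (18 to 20 higher, 1 to 2 lower), 18 to 20 in GMTT against GPI (16 to 18 lower, 2 to 2 higher) and 6 to 8 in GMTT against Sham (5 to 7 higher, 0 to 1 lower). With at least 5 CPM in 3 libraries, which left fewer members to test, 6 (5 higher), 6 (5 lower, 1 higher) and 3 (3 higher, 0 lower) were called. In GPI against Sham 2 members were lower with library sizes only, with no low-count filter and with limma on unfiltered log2(FPKM + 1). In GMTT against GPI library sizes only gave 10 lower and 4 higher. In GMTT against Sham 0 were lower with DESeq2 and in the fit of 6 libraries. The replicate block changed no call and gave 20, 20 and 8 members called; same-numbered libraries had correlated deviations of -0.23 to 0.09, so the numbers were not taken as pairs.

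With library sizes only, signs turned in GPI against Sham for Hoxb6 (-0.31), Hoxb7 (-0.25), Pitx1 (-0.64) and Hoxa11 (-0.11), and in GMTT against GPI for Hoxb3 (0.58), Hoxb6 (0.24), Hoxb7 (0.89, called) and Tbx4 (0.053). Hoxb4 in GMTT against GPI turned with median-of-ratios scaling (-0.011), on log2(FPKM + 0.1) (-0.010), without dominant genes (-0.0185), and without GMTT replicate 1 or GPI replicate 2 (range -0.23 to 0.13 when 1 library was left out). In GMTT against Sham, leaving out 1 library turned Hoxa2 (range -0.060 to 0.90), Hoxb6 (-0.34 to 0.26), Hoxc6 (-0.075 to 0.24) and Hoxd4 (-0.14 to 0.47), none of them called. The cause was not tested.

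The posterior share of Hox FPKM ranged over 56.6 to 57.8% in GMTT, 73.4 to 73.7% in GPI and 50.2 to 51.1% in Sham when 1 library was left out. It was 52.13, 67.68 and 44.84% from counts, 44.3, 57.0 and 44.4% without Hoxc10, 78.06, 87.36 and 72.80% with paralogues 1 to 4 as anterior, and 28.3, 50.7 and 17.6% with 10 to 13 as posterior. In GPI it was 74.1% over genes past the filter and 70.2% with the 3 added HoxA rows, an alternative chosen after seeing the data. Depth limits small differences: most members have few counts per group.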

Other observations

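The table holds 3 more rows in the HoxA cluster that carry no Hox symbol and so were not members; they were singled out after their values were seen. LOC100911668, described in the file as Hox-A10-like (chromosome 4, 81331591 to 81340919, minus strand, mRatBN7.2), had 2.91, 3.51 and 3.21 FPKM in GMTT, 13.3, 13.2 and 13.98 FPKM in GPI, and 2.29, 1.996 and 1.67 FPKM in Sham. The 3 groups did not overlap, in the order seen for Hoxc10. Its log2 changes were 2.74 (SE 0.10) in GPI against Sham, -2.07 (SE 0.09) in GMTT against GPI and 0.66 (SE 0.11) in GMTT against Sham, all called by edgeR's quasi-likelihood test. LOC103692127, described as Hox-A5, changed by 1.95 (SE 0.14) in GPI against Sham and -1.72 (SE 0.14) in GMTT against GPI. LOC100911511, described as Hox-A6-like, changed by 2.41 (SE 0.23) and -2.23 (SE 0.22). Neither of these was called in GMTT against Sham. The Hox-A5 and Hox-A6-like rows lie inside the span of Hoxa3 on the same strand.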
